A study of Mus musculus with 4 samples.

Results

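In the ATAC-seq peak lists of mouse embryonic stem cells, 2523 autosomal regions were called in both libraries of Hox-/- cells and in neither library of wt cells. They were chosen by merging all intervals of the 4 lists wherever they overlapped by at least 1 bp and keeping the regions of the 19 autosomes that both Hox-/- lists and no wt list touched. They are 1.24% of 203684 merged autosomal regions, and 1.95% of the 129066 regions that both Hox-/- lists called. Presence and absence in these lists chose the regions, so their ranks, folds and counts are described here without a test.

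The cells were of 2 genotypes with 2 libraries each: wt, and Hox-/-, which by the series title lack all Hox function. Cells of both genotypes grew in medium with serum, leukaemia inhibitory factor, the GSK-3 inhibitor CHIR99021 and the MEK1/2 inhibitor PD0325901. How the Hox genes were inactivated, and whether the 2 libraries of a genotype are separate cultures or clones, is not given in the sources used here. Spread between libraries may therefore be technical.

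ATAC-seq uses a transposase that inserts sequencing adapters where DNA is accessible. A peak caller then lists intervals in which more fragments end than the local background predicts. Promoters and CTCF sites give strong peaks in most cells, while distal regulatory elements are more often weak and specific to a cell state. Hox genes encode homeodomain transcription factors that pattern the body axis and are largely silent in pluripotent stem cells.

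The sequences of a few of these regions can be shown, where they fall on an annotated RefSeq promoter or miRNA (GRCm38.p6, the assembly of mm10). Of the 31396 RefSeq promoter windows used (the 250 bases before a gene start), 41 were touched by a Hox-/- only region. Those with complete sequence belonged to 37 genes, of which 19 are protein-coding and 18 are lncRNAs. The best-ranked protein-coding promoters among them were those of Usp46, a deubiquitinase, Myo7a, the unconventional myosin of inner ear hair cells, and Itgb6, the beta 6 integrin subunit. Their 250 upstream bases are printed 5′ to 3′ on the gene's own strand, which is the minus strand for all 3, with the bases inside the Hox-/- only region in capitals. They are shown because the called region covers part or all of the promoter.
Usp46, chr5:74068412-74068661: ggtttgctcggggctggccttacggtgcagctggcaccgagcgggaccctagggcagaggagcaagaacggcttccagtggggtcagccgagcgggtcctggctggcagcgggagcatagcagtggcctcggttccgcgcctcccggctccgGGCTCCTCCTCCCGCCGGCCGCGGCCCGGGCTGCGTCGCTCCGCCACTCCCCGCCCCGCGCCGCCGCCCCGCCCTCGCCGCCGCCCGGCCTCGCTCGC
Myo7a, chr7:98119494-98119743: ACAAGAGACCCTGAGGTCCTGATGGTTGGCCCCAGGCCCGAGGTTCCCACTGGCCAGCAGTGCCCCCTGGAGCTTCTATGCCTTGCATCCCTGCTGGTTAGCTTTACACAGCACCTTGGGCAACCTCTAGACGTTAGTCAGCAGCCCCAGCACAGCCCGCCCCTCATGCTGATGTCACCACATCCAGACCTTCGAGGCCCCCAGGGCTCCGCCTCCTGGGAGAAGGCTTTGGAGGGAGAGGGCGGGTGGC
Itgb6, chr2:60722604-60722853: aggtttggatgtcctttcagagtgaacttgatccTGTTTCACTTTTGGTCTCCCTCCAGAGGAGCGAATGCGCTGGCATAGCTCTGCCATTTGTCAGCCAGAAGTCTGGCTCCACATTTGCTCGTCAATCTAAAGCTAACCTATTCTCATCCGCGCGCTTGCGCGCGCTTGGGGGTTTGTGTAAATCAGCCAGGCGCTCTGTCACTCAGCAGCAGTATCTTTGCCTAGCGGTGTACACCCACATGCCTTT

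The 3 promoters differed in base composition. That of Usp46 had 77.6% G and C and 33 CpG dinucleotides, that of Myo7a 63.2% and 6, and that of Itgb6 52.0% and 11. The GC box GGGCGG, searched on both strands, occurred 4 times in the Usp46 window, 2 times in the Myo7a window and 0 times in the Itgb6 window. The region at Usp46 had a fold over background of 2.29 in Hox-/- replicate 1 and 2.32 in replicate 2. The region at Myo7a had folds of 3.37 and 3.49, and that at Itgb6 had 3.81 and 3.61. Neither wt list called them, and the nearest wt peak lay 206 bp away at Usp46, 464 bp away at Myo7a and 1410 bp away at Itgb6.

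Over the 40 touched promoter windows with complete sequence, the letters were close to those of promoters in general. The GC box was in 32.5% of them and in 33% of 31387 complete windows, against 57.0% of the 15689 windows touched by a region called in all 4 libraries. The median G and C content was 53.6%, against 52.4% of all windows and 60% of those touched by a region called in all 4. The 138 complete windows touched by a region called in both wt lists and no Hox-/- list were similar. The GC box was in 29.0% of them, and their median G and C content was 51.8%. The AP-1 letters TGANTCA were in 2 of the 40 windows (6.77% of all), the octamer ATGCAAAT in 1 (1.62% of all), AGATAA, read by GATA factors, in 4 (9.95% of all), GGAATG, read by TEAD factors, in 4 (12.5% of all), and the E-box CACGTG in 2 (6.02% of all). All were searched on both strands, and a match describes letters only.

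A single miRNA hairpin of the 919 on autosomes in the RefSeq table was overlapped by a Hox-/- only region. It is that of Mir199a-2 at chr1:162217814-162217923 on the plus strand, within the span of the dynamin gene Dnm3. The same region touches the promoter window of Dnm3os, the lncRNA that runs antisense to Dnm3. Its mature forms are printed with the seed, bases 2 to 8, in capitals.
mmu-miR-199a-5p: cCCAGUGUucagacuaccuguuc
mmu-miR-199a-3p: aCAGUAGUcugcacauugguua
The region, chr1:162217497-162217978, had a fold of 3.29 and a −log10 q of 4.40 in Hox-/- replicate 1, and 2.75 and 3.85 in replicate 2. The nearest wt peak lay 3315 bp away. With ranks of 161897 and 181659 it stood among the weaker peaks of both lists.

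The 4 Hox clusters held 40 to 59 peaks each in the wt libraries and 0 to 5 in the Hox-/- libraries. All 7 stem cell markers examined (Pou5f1, Sox2, Nanog, Zfp42, Esrrb, Klf4 and Tfcp2l1) had a peak within 1 kb of a gene end in every library, as did all 5 fibroblast genes (Col1a1, Col1a2, Thy1, Twist1 and Prrx1), so these calls do not separate the cell types. The lists held 213705 and 216795 peaks in wt and 191704 and 200214 in Hox-/-. The number of reads is not given, and relative depth was read from the lowest local background at peaks (the 0.1% quantile), solved from fold and p-value. It was 7.46 for wt replicate 1 and 7.02 for wt replicate 2, and 4.77 and 7.36 for the Hox-/- libraries. By this measure Hox-/- replicate 1 had 0.640 of the depth of wt replicate 1, and the other Hox-/- library 0.987.

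The number of Hox-/- only regions was within the range that pairs of mixed genotype gave. The 4 pairs of 1 wt and 1 Hox-/- library shared, and no other library called, 2402 regions (wt replicate 1 and Hox-/- replicate 1, 1.18% of merged regions), 2761 (wt replicate 2 and Hox-/- replicate 1, 1.36%), 3678 (wt replicate 1 and Hox-/- replicate 2, 1.81%) and 3929 (wt replicate 2 and Hox-/- replicate 2, 1.93%). The wt pair alone called 7774 (3.82%). Of the mixed pairs, those with the shallower Hox-/- replicate 1 had fewer regions, and the part of depth in these counts was not tested. In a further setting every list was held to its 155021 strongest intervals, the full length of the Hox-/- replicate 1 list, which thus lost none. The lists of wt replicate 1, wt replicate 2 and Hox-/- replicate 2 were cut from 170162, 173488 and 163714 intervals. There were then 3941 Hox-/- only regions (2.08%), below the 4993 (2.64%) of the wt pair. The mixed pairs then had 2839 (1.5%) and 2775 (1.46%) with Hox-/- replicate 1, and 3135 (1.65%) and 3072 (1.62%) with replicate 2, all below the Hox-/- pair. The order of the Hox-/- pair against the mixed pairs therefore changed with the length of the lists. Leaving out a library raises the number by construction, since 1 condition fewer is asked. Dropping the wt libraries in turn gave 5652 regions (first replicate) and 5936 (second), and dropping the Hox-/- libraries 11670 (first) and 9694 (second).

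Most Hox-/- only regions were weak peaks. In Hox-/- replicate 1 their rank by −log10 p, with 1 as the strongest, ran from 65885 to 191687 with a median of 155246, and in replicate 2 from 57190 to 200108 with a median of 160899. No region was among the 50000 strongest of either list, and 88 and 72 were among the 100000 strongest of replicates 1 and 2. The median fold was 3.17 (quartiles 2.77 and 3.74) in replicate 1 and 3.05 (2.62 and 3.59) in replicate 2. The summit pileup, which counts the overlapping fragments or read ends behind a peak as the peak caller saw them, had a median of 21 and 29 on a median local background of 4.77 and 7.36.

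**Figure D1:**
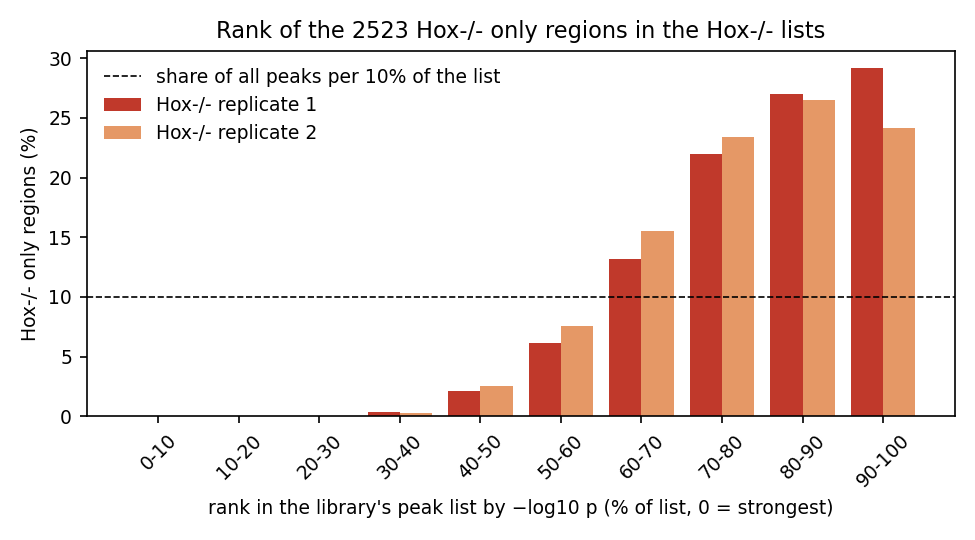
Share of the 2523 Hox-/- only regions (vertical axis, %) in each 10% of the Hox-/- replicate 1 and replicate 2 peak lists (horizontal axis, rank by −log10 p as % of the list, strongest first). The dashed line marks the 10% of all peaks in each step; 29.2% of the regions in replicate 1 and 24.1% in replicate 2 fell in the weakest 10%.

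The mixed pairs were weak in the same way. Both Hox-/- peaks lay in the stronger 50% of their lists at 15 regions, or 0.595% (exact 95% binomial interval 0.333% to 0.979%). In the mixed pairs the corresponding share was 0.25% to 0.653%, in the wt pair 1.70%, and among regions called in all 4 libraries 67.1%. Such intervals reflect counting error alone, and regions beside each other share their surroundings.

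The regions were narrow and mostly had 1 summit. They had a median width of 303 bp (quartiles 266 and 373, range 200 to 935). Regions of the mixed pairs had medians of 294 to 301 bp, those of the wt pair 310 bp, and those called in all 4 libraries 591 bp. In replicate 1, 96.5% of the regions held a single summit, and in replicate 2, 96.0%. The widest was chr9:37717758-37718692 (935 bp), 5478 bp from the olfactory receptor gene Olfr160, with folds of 5.03 and 4.54 and 2 summits in each library. The next were 860 bp on chromosome 2 near Gpd2, a mitochondrial glycerol phosphate dehydrogenase, 849 bp in Srgap1, 841 bp in Lrrc8d, a subunit of volume-regulated anion channels, and 830 bp near the kinase gene Hunk.

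Close to the calling limit of a −log10 q of 1.3, membership turned on small differences. The weakest members had a −log10 q of 1.31 in Hox-/- replicate 1, as at chr1:74950023-74950402, whose replicate 2 value was 3.39, and at chr5:137314832-137315069, whose replicate 2 value was 5.40. The 5 weakest members spanned 1.31 to 1.32 in replicate 1. Just outside, chr18:38210528-38211509 had 1.77 and 4.86 in the Hox-/- libraries and was also called in 1 wt library at 1.31. Likewise chr10:116941110-116941474 had 3.82 and 3.37 and a wt value of 1.32. Another, chr11:10087178-10087438, had 3.69 and 5.99 and a wt value of 1.32. In 198 members (7.85%) the weaker of the Hox-/- values was under 2. Of the 6411 regions that both Hox-/- lists and exactly 1 wt list called, 107 (1.67%) had a wt value under 2.

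The wt peaks were seldom far away. The nearest wt peak lay a median of 2440 bp from the region (quartiles 774 and 6698 bp), 752 regions (29.8%) had one closer than 1 kb, and 418 (16.6%) had none within 10 kb. At 13 regions (0.515%) the gap was 100 kb or more. A wt peak lay within 5 kb of 1728 regions (68.5%). The other pairs were alike in their distance from peaks of the libraries outside the pair. No such peak lay within 1 kb of 1771 of the 2523 Hox-/- only regions and of 5485 of the 7774 of the wt pair. In the mixed pairs it was 1674 of 2402 and 1970 of 2761 with Hox-/- replicate 1, and 2421 of 3678 and 2699 of 3929 with replicate 2.

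The best-ranked regions differed in their local background. Of the 20 regions with the best rank in their worse Hox-/- library, 5 stood on the lowest background of their lists: a region 76 kb from Tank, chr6:112995756-112996057 near Srgap3, chr3:11374160-11374594, chr2:13338645-13339136 in Cubn, and chr8:107876511-107876913. The other 15 stood on a raised background and had lower folds.

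Among those on the lowest background, chr2:61501966-61502263 was 76294 bp from the nearest gene end, that of Tank, a regulator of NF-kB signalling. It had folds of 6.76 and 6.22, ranks of 76683 and 81877, and no wt peak within 7232 bp. The region near Srgap3, a GTPase-activating protein of the Slit and Robo pathway, had folds of 7.28 and 5.86 and lay 4652 bp from a wt peak. In these 2 the pileup was 38 and 51, and 41 and 48, on backgrounds of 4.77 and 7.36. The region in Cubn, the cubilin receptor gene, had folds of 5.72 and 5.50 and was 30996 bp from any wt peak. The region chr3:11374160-11374594 lay 934029 bp from the end of any protein-coding gene but 2100 bp from a wt peak, with folds of 5.72 and 6.94. That on chromosome 8 lay 288029 bp from Psmd7, a proteasome lid subunit, and 4978 bp from a wt peak, with folds of 5.37 and 5.62.

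The top rank was held by a region on a raised background. It was chr17:47691650-47692005, within both Frs3, an adaptor of fibroblast growth factor receptors, and the overlapping Prickle4. Its pileup was 109 and 142 on backgrounds of 31.2 and 43.2, so that the folds were 3.41 and 3.23 while the −log10 q reached 25 and 30.1. The next, chr2:127609053-127609326 near the mitochondrial ribosome gene Mrps5, had folds of 3.18 and 3.56, and its nearest wt peak was 494 bp away. The region in Tmem79, which encodes a membrane protein of the epidermal barrier, had folds of 3.16 and 3.37. Regions in Tmc7, Cklf, a chemokine-like factor, Snx29, a sorting nexin, and Sh3gl3, an endophilin, followed, with folds of 3.44 to 5.11 in replicate 1 and 3.78 to 4.20 in replicate 2. The remaining 8 lay within or nearest to Siglece, Gm21976, Zc3h12a, Evi5, Cavin1, Fam169a, Slc22a12 and Prpf6.

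Across all members, 61.1% stood on the lowest background in replicate 1 and 59.5% in replicate 2. For comparison, 62.4% and 66.9% of the regions of the mixed pairs with Hox-/- replicate 1 did so in that library. The corresponding shares of the mixed pairs with Hox-/- replicate 2 were 48.6% and 55.4%.

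The regions were mostly distant from gene ends. Within 1 kb of an end of a protein-coding gene lay 171 regions, or 6.78% (exact 95% binomial interval 5.83% to 7.83%), against 5.40% to 7.15% in the mixed pairs, 6.37% in the wt pair, 15.2% of regions called in all 4 libraries and 11.4% of all merged regions. The gene span held the midpoint of 50.8% of the regions (48.8% to 52.7%), against 54.2% to 56.8% in the mixed pairs and 57.3% in the wt pair. Intergenic regions over 50 kb from any gene end made up 19.9%, against 15% to 18% in the mixed pairs, 14.9% in the wt pair and 13.9% of regions called in all 4. The gene table gives spans only, so exons and introns were not told apart.

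At gene ends, the best-ranked region was in Tmc7, 941 bp from the end, with folds of 3.87 and 3.97. The region at Fam169a lay 484 bp from the end, with folds of 2.87 and 2.81. One 95 bp from Rhebl1, a small GTPase related to Rheb, had folds of 3.32 and 2.92, one across an end of Tradd, an adaptor of the tumour necrosis factor receptor, had 3.15 and 2.67, and one 510 bp from Pdlim7, a scaffold of the actin cytoskeleton, had 2.95 and 2.60. In all 5 the nearest wt peak was 124 to 3062 bp away.

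Few of the listed genes of early development had such a region nearby, as few genes did in general. Of 20665 autosomal protein-coding genes, 1690 (8.18%) had a Hox-/- only region within their span or 10 kb beyond it. They were longer than the others, with a median length of 52586 bp against 16199 bp. Of the 20 pluripotency genes listed, 0 had one, nor did any of 9 Hox cofactors (the Pbx, Meis and Pknox genes), 12 germline and 2-cell genes, 10 trophoblast genes and 12 AP-1 and stress genes. These lists are too short to be set against 8.18% with any precision.

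The genes of the lists that did have one were 1 of 17 mesoderm genes, 1 of 12 endoderm genes, 2 of 17 neural genes and 1 of 11 fibroblast and matrix genes. At Hand2, a factor of heart and limb development, the region lay within the gene, 737 bp from its end, with folds of 2.89 and 2.86. At Sox7, an endoderm factor, it had folds of 2.2 and 1.87 and lay 91 bp from a wt peak. Near Sox10, the neural crest factor, the region had folds of 2.81 and 2.41, and its nearest gene end was that of Polr2f. Neurog2, a proneural factor, had 2 regions, 6346 and 5334 bp from the gene, with folds of 2.70 and 3.17 in replicate 1 and 3.05 and 2.77 in replicate 2. The region in Fn1, the fibronectin gene, had folds of 2.29 and 2.06.

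Taking each Hox cluster as the span from its first to its last Hox gene, 0 of the 144 merged regions inside the 4 clusters were Hox-/- only. With 0 to 5 peaks per cluster in the Hox-/- lists, hardly any could be. In the 500 kb on either side of the clusters there were 11 among 625 merged regions (1.76%, against 1.24% of all merged regions): 1 of 137 at HoxA, 7 of 227 at HoxB, 1 of 185 at HoxC and 2 of 76 at HoxD. The mixed pairs had 7 to 12 regions in the same flanks and the wt pair 18. At HoxB the mixed pairs had 1 to 3 and the wt pair 5. The nearest to a Hox gene was chr6:52281069-52281663, which lay 20189 bp beyond Hoxa13 and had folds of 3.64 and 2.87 and a −log10 q of 5.63 and 4.34. Beyond HoxD, chr2:74886948-74887501 lay 10200 bp from Mtx2, a mitochondrial import gene, with folds of 3.47 and 3.83. At HoxB, 3 of the 7 were within Skap1, the gene next to the cluster, between 96644098 and 96656013 on chromosome 11, with folds of 3.19 to 3.81 in replicate 1 and 3.47 to 4.19 in replicate 2. The other 4 at HoxB lay in Phospho1 and Abi3, in Gngt2, 25 bp from Igf2bp1, an RNA-binding protein gene, and in Cbx1, a heterochromatin protein gene, with folds of 2.65 to 3.44 in replicate 1 and 2.15 to 3.38 in replicate 2. At HoxC the single region, 91138 bp from Hoxc13, had folds of 2.43 and 3.47.

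Along the chromosomes the regions were spread over all 19 autosomes. Their number per 1000 merged regions was 12.4 in all and ran from 9.06 on chromosome 19 to 16.8 on chromosome 3, a ratio of 1.86. In the mixed pairs this ratio was 1.24 to 1.6 and in the wt pair 1.23. Chromosomes 18 and 13 came after chromosome 3, with 15.4 and 14.9. By position within the chromosome, taken in 5 equal stretches from the first to the last region, the number was 11.7 to 13.4 per 1000, with no stretch apart.

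**Figure D2:**
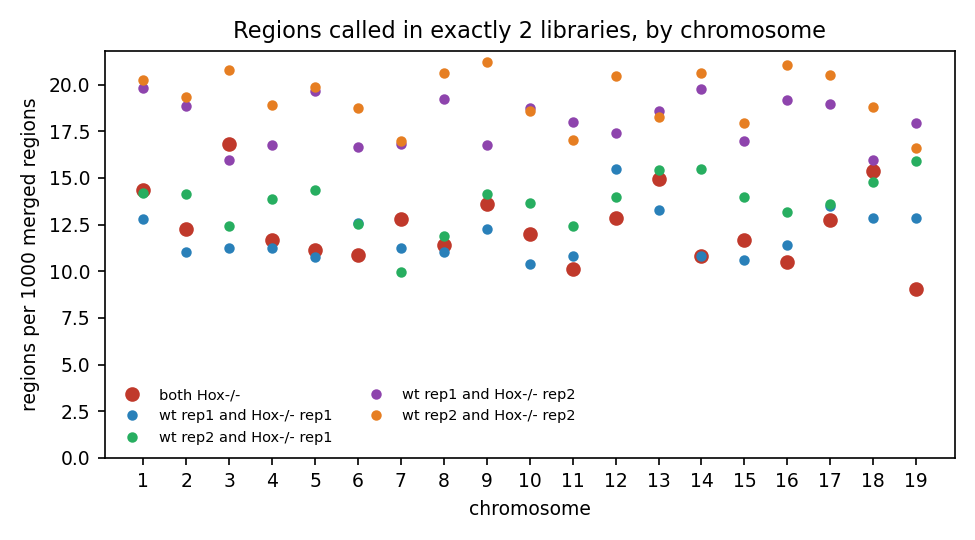
Regions called in exactly 2 libraries per 1000 merged regions (vertical axis) on each autosome (horizontal axis), for the Hox-/- pair and the 4 pairs of mixed genotype; each point is a chromosome. The Hox-/- pair reached 16.8 on chromosome 3 and 9.06 on chromosome 19.

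Neighbouring Hox-/- only regions were seldom close, but where they were, some formed long groups. Another Hox-/- only region lay within 100 kb of 710 regions, or 28.1% (26.4% to 29.9%). The share was 26.7% and 27.2% in the mixed pairs with Hox-/- replicate 1, 39.7% and 39.4% in those with Hox-/- replicate 2, and 63.5% in the wt pair. With 1 library left out, and so with more regions, it was 50.1% and 50.5% (either wt library dropped), 74.0% (Hox-/- replicate 1 dropped) and 65.6% (Hox-/- replicate 2 dropped). Groups of 5 or more, linked by gaps under 100 kb, numbered 7 for the Hox-/- pair, 0 and 1 for the mixed pairs with Hox-/- replicate 1, and 13 and 14 for those with replicate 2. Groups of 8 or more numbered 2 for the Hox-/- pair and 0 for all 4 mixed pairs, whose largest held 4 to 7 regions. The wt pair had 22 such groups, the largest with 38. These sizes rest on the linking gap. With gaps under 50 kb no group of 8 or more was left in the Hox-/- pair, whose largest held 6, against 4 to 5 in the mixed pairs and 35 in the wt pair. With gaps under 500 kb the largest held 40, against 15 to 31 in the mixed pairs and 114 in the wt pair.

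**Figure D3:**
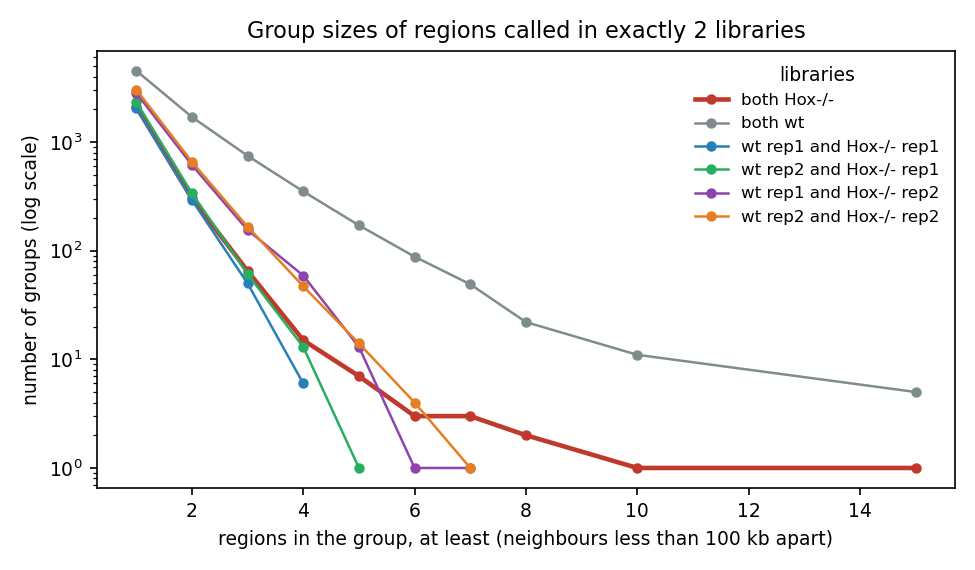
Number of groups (vertical axis, log scale) with at least the number of regions on the horizontal axis, for regions called in exactly 2 libraries and linked by gaps under 100 kb. The Hox-/- line runs on to a group of 15, while the lines of the mixed pairs end at 4 to 7; with gaps under 50 kb the largest Hox-/- group held 6 and those of the mixed pairs 4 to 5.

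The largest group had 15 regions over 509 kb of chromosome 3, from 78987838 to 79497076. The stretch holds Rapgef2, a guanine nucleotide exchange factor for Rap GTPases, the gene Gm17359, and Fnip2, a partner of folliculin. The Hox-/- libraries called 74 and 76 regions there, and the wt libraries 49 and 56. Here and in the groups below, the Hox-/- counts include the members, which by the rule add nothing to the wt counts. Part of each difference is therefore fixed by the choice of regions. In the 15 members the fold was 2.29 to 6.76 in replicate 1 and 2.51 to 5.26 in replicate 2, and the −log10 q had medians of 4.73 and 7.38. The strongest in replicate 1, chr3:79394618-79395035 in Gm17359, had folds of 6.76 and 3.11, and the strongest by fold in replicate 2, chr3:79276101-79276627 in Rapgef2, had 3.47 and 5.26. So the 2 libraries did not rank the members alike. Regions called only by the wt pair numbered 0.

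Other settings changed the size of this group, and some its place as the largest. With linking gaps under 50 kb it broke into 5 pieces, the largest of 6 regions, which was still the largest group of the Hox-/- pair. With gaps under 500 kb the largest group, of 40 regions, lay on chromosome 2 from 57141628 to 62407313. At 100 kb the chromosome 3 group held 14 regions with at least 50% of the region covered, 11 with no wt peak within 1 kb, and 7 with a −log10 q of at least 5. With lists of equal length the stretch held 14, within a longer group of 16 that began at 78825572, when the largest group was 6 in each mixed pair and 32 in the wt pair. Without wt replicate 1 the largest group held 19 regions, without wt replicate 2 it held 26 and without Hox-/- replicate 2 it held 23, each on chromosome 3 and overlapping this stretch. Without Hox-/- replicate 1 the largest, with 44 regions, lay on chromosome 2 between 59478886 and 60818070, and 23 lay in the chromosome 3 stretch.

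The second group had 8 regions over 242 kb of chromosome 1, from 175954308 to 176196651, at Pld5, a member of the phospholipase D family. This is a sparse stretch: the wt libraries called 6 and 8 regions, and the Hox-/- libraries 16 and 21. Members made up 38.1% of its 21 merged regions, and their median distance from a wt peak was 22558 bp. The folds were 2.60 to 4.50 in replicate 1 and 2.39 to 4.71 in replicate 2. With linking gaps under 50 kb it broke into 3 pieces of at most 3 regions.

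Chromosome 2 held both following groups. That of 7 regions, from 58614906 to 58826764, lay over Upp2, a uridine phosphorylase, and Ccdc148, with 16 and 13 regions called in wt against 27 and 29 in Hox-/-. That of 5 regions, from 60098314 to 60306690, lay over Baz2b, a bromodomain gene, Marchf7, a ubiquitin ligase, and Ly75, an endocytic receptor. There 37 and 39 regions were called in wt against 41 and 44 in Hox-/-, and the 5 members are part of both Hox-/- counts.

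On chromosome 18 there were 2 groups of 5, one at Smim3, Myoz3 and Synpo and one at Tcof1 and Arsi. In the first, wt libraries called 22 and 24 regions and Hox-/- libraries 29 and 31, and in the second the numbers were 20 and 19 against 26 and 25. The last group of 5 was different. It lay at Dlgap1 and Tgif1, a homeobox repressor, on chromosome 17 from 70808658 to 70945285, where wt called 32 and 32 regions and Hox-/- 33 and 33. Its members had folds of 2.04 to 2.86 and 1.98 to 2.82, and a median distance of 1117 bp from a wt peak.

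**Figure D4:**
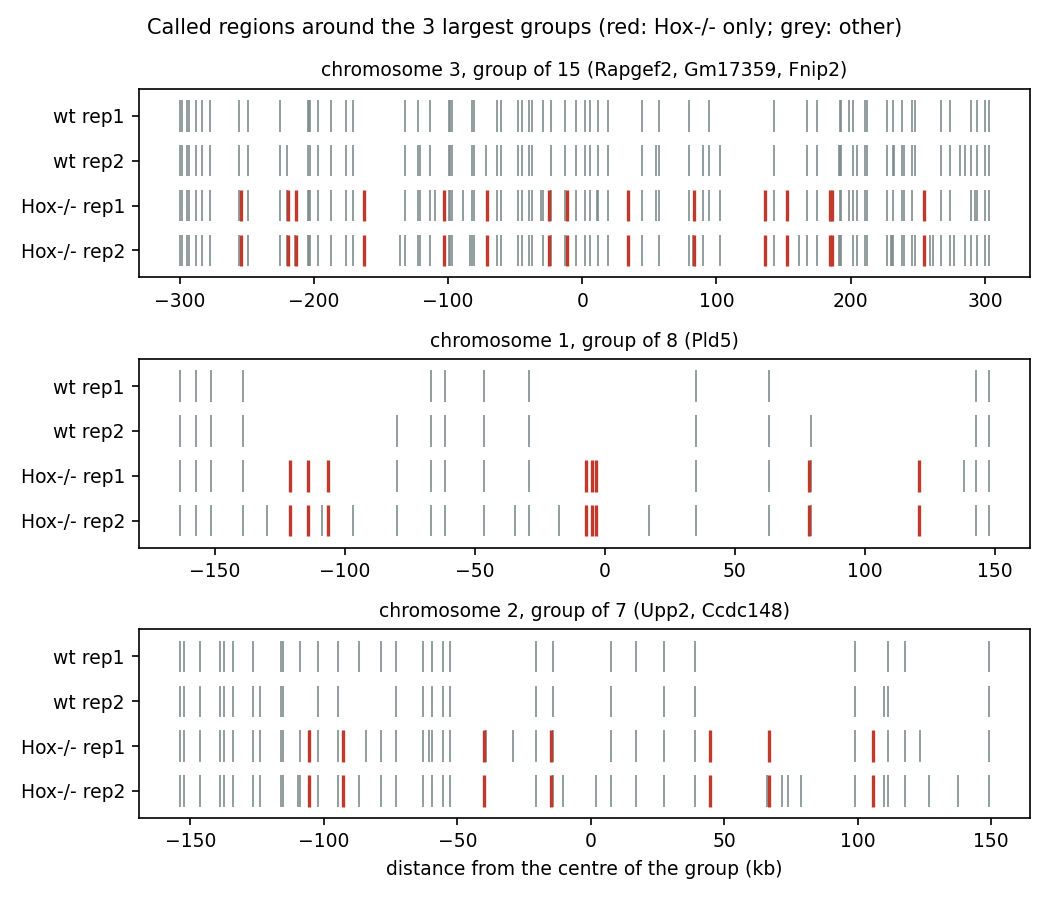
Regions called in each of the 4 libraries (rows) around the 3 largest groups on chromosomes 3, 1 and 2, by distance from the group's centre in kb (horizontal axis). Each tick is a called region; red ticks are Hox-/- only regions, which number 15, 8 and 7, and grey ticks are all others.

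Regions that every library called are not members, and their ranks were read over the same stretches. They come from the same 4 lists and the same contrast that chose the members, so they are given as a description. Each was ranked by −log10 p among all such regions of its library. Of 120132 such regions, 20.5% ranked higher in both Hox-/- libraries than in both wt libraries, and 20.4% ranked lower in both. In the chromosome 3 group, 29 of 44 ranked higher in both, in the Pld5 group 5 of 6, in the Upp2 group 7 of 13 and in the Baz2b group 21 of 32. In the Smim3 and Synpo group it was 11 of 19, in the Tcof1 group 11 of 18, and in the Tgif1 group 4 of 26. Thus 6 of the 7 groups stood over the share of all regions and the Tgif1 group below it. With 2 libraries against 2, a two-sided exact permutation test cannot give a p-value under 0.33, and no test is given.

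The same ranks were read in windows of 1 Mb. In the 42 windows with 5 or more Hox-/- only regions, 30.8% of 4058 regions called in all 4 libraries ranked higher in both Hox-/- libraries. This pooled share rested on 13 windows, chosen by a median rank shift of at least 0.25 and so by the same ranks, in which 518 of 766 did. In the other 29 windows it was 730 of 3292, or 22.2%, close to the 20.5% of all regions. The share was 19.8% in the windows with 0 Hox-/- only regions, 19.9% with 1, 20.2% with 2 and 21.0% with 3 to 4. In windows with 5 or more regions of a mixed pair it was 19.2% to 19.9%. Windows with 0 wt only regions, 446 in number, had a share of 29.8%.

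**Figure D5:**
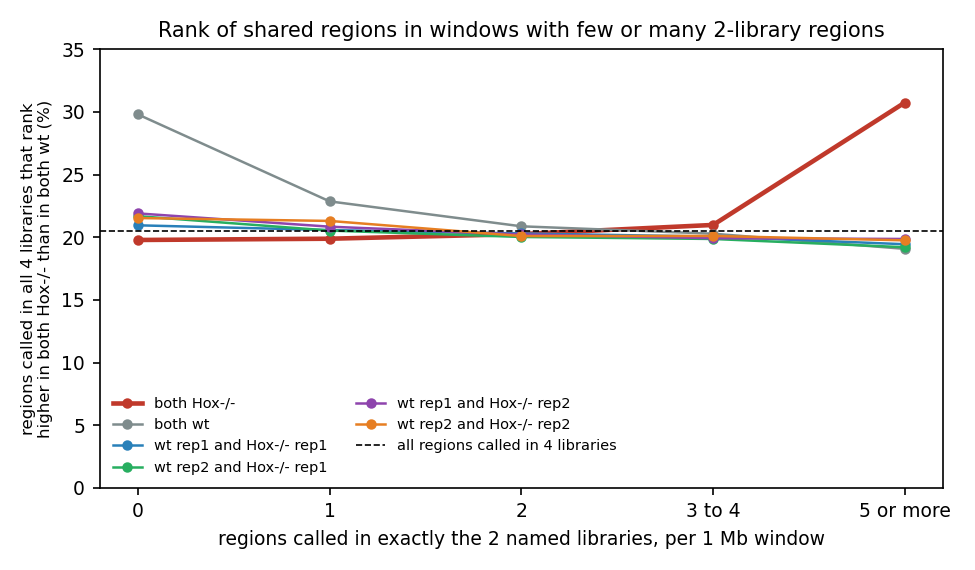
Share of regions called in all 4 libraries that ranked higher in both Hox-/- than in both wt libraries (vertical axis, %), in 1 Mb windows grouped by how many regions exactly 2 named libraries called there (horizontal axis). The Hox-/- line is near the dashed 20.5% of all regions up to 3 to 4 per window and reaches 30.8% at 5 or more, a pooled value of 42 windows of which 29 together had 22.2%.

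The 42 windows ranged widely in the ranks of their shared regions. The median shift between genotypes, in log2 of rank, was at least 0.25 in favour of Hox-/- in 13 of them, a limit set after the values were seen. Values ran on from one side of the limit to the other, with shifts of 0.23 at 127 to 128 Mb of chromosome 7 and 0.19 at 78 to 79 Mb of chromosome 3. The 13 windows held 108 Hox-/- only regions and 7 wt only regions, and the other 29 held 154 and 163. The densest windows were among the 13: 79 to 80 Mb of chromosome 3 with 16 regions, 60 to 61 Mb of chromosomes 18 and 2 with 11 each, and 176 to 177 Mb of chromosome 1 and 58 to 59 Mb of chromosome 2 with 10 each. Over the genome, 22 of 1713 windows with 20 or more shared regions (1.28%) had a shift of that size. Each of these 22 windows held at least 2 Hox-/- only regions, with a median of 5 and 139 in all. Among all windows with a merged region, 1057 held 0 Hox-/- only regions and 688 held 1. Shift and membership come from the same lists and the same contrast, so these values are a description.

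Some of these windows fall in 4 longer stretches in which shared regions ranked higher in Hox-/-, chosen with that ranking known. They are 55 to 62 Mb of chromosome 2, the 6 Mb of chromosome 1 that end at 180 Mb, 59 to 63 Mb of chromosome 18 and 33 to 38 Mb of chromosome 9. In them 64.6%, 64.5%, 57.7% and 66.7% of the regions called in all 4 libraries ranked higher in both Hox-/- libraries. They held 39, 33, 18 and 16 Hox-/- only regions, together 106 among 2090 merged regions, or 50.7 per 1000. In the same stretches the mixed pairs had 19 to 42 regions and the wt pair 20. These 106 are 4.20% of all Hox-/- only regions, and the others lay elsewhere on the autosomes.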

How the data were processed

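ATAC-seq was done on 2 libraries each of wt and Hox-/- mouse embryonic stem cells. The authors deposited 1 peak list per library, not pooled. Per the submitters' processing notes, the build was mm10 and the tools included cutadapt 4.8, Bowtie2 2.5.0, Picard 2.18.2, bedtools 2.30.0, MACS2 2.2.9.1 and deepTools 3.5.4, with no settings given. Each deposited line has a fold over background (a ratio), a −log10 p, a −log10 q, a score that repeats the −log10 q in whole steps, and a summit position. Lines weaker than a −log10 q of 1.3 are not in the deposited lists.

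Intervals were merged and classed with Python 3.11.15, pandas 2.3.3, numpy 2.4.6 and scipy 1.17.1. The steps were tested on made-up peak lists with known answers. A region's value in a library is that of its strongest line. Pileup and background were solved from fold, taken as (pileup + 1) / (background + 1), and a Poisson p-value. Of lines with a −log10 p under 250, 100% after rounding gave a pileup within 0.05 of a whole number, and stronger lines were left out of this step. A background within 1% of the 0.1% quantile counted as the lowest. This yields relative depth only, and no count of reads. Gene spans and promoters came from the RefSeq tables of GRCm38.p6, and promoters of chromosome 18 were not used here.

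No comparison was tested, because list membership chose the regions. Regions were named by a rule: the 20 best ranked, the 5 widest, the 5 best ranked at gene ends, groups, those near Hox clusters or listed genes, and those at the threshold. All 7 groups of 5 or more are described, 2 more than the rule names, because of ties in size. The miRNA and promoters were chosen after their values were seen. The members and gene lists were chosen with earlier results of these data known. Alternatives covered overlap, merging, the −log10 q limit, list length, distances and leaving out each library.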

Additional observations from a re-analysis of the deposited data

How the results depend on the processing

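Of 53 alternative values of the 5 results (number, share at gene ends, share with a neighbour, width and share in the stronger 50% of the lists), 22 stayed within 1.5 times the count or within the interval of the value and 31 moved. A reversal of direction was not looked for. Keeping Hox-/- peaks from a −log10 q of 5 upwards left 1023 regions, of which 15.2% had a neighbour, the median width was 285 bp and 1.47% lay in the stronger 50% of both lists. From a −log10 q of 2 upwards, 26.1% had a neighbour. With lists of equal length there were 3941 regions, 40.8% with a neighbour, and a median width of 332 bp. With no wt peak within 1 kb, 4.40% lay at a gene end and 20.2% had a neighbour. With 50% of the region covered the median width was 297.5 bp. Windows of 5 kb gave 19.7% at gene ends, and neighbour distances of 50 kb and 500 kb gave 18.3% and 73.3%. Wider windows and longer neighbour distances raise these shares by construction, and for the other moved values the cause was not tested. Leaving out each library gave 5652 to 11670 regions, 5.65% to 6.88% at gene ends, 50.1% to 74.0% with a neighbour, a median width of 237 to 313 bp, and 1.06% to 1.26% in the stronger 50%. The size of the largest group, examined after seeing the data, was 6 and 40 with linking gaps of 50 kb and 500 kb. No paired analysis was possible because the counts come from no test. The depth of Hox-/- replicate 1 was the lowest of the 4 libraries, and its part in the counts was not tested. Peak lists hold no values below the calling limit, so absence from a list is no measure of the signal there.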
